A study of Homo sapiens with 12 samples.

Results

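The response of NCI-H1975 cells to 2 doses of the compound 18E was described across 11525 genes. These are the genes with values in all 6 libraries of the compound table and at least 1 FPKM (fragments per kilobase of transcript, adjusted for library size) in 1 or more of the 3 NCI-H1975 libraries, out of 16760 complete genes. The 3 libraries came from cells given DMSO, the solvent control, from cells given 2.5 µM 18E and from cells given 5 µM 18E. The labels give 24 h for both 18E samples and no time for DMSO. NCI-H1975 is an established human non-small cell lung cancer line that carries an activating mutation of EGFR. 18E is known here only by its code name, and the series title names LIC1, the dynein subunit gene DYNC1LI1, as the target of a small molecule that induces autophagy. There was 1 library per dose, so no p-value can be given within the line and every change below is described by its size alone.

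Cells that meet unfolded proteins, amino acid shortage or oxidants change transcription along a few known routes. In the integrated stress response, phosphorylation of the initiation factor eIF2 slows protein synthesis while the transcription factor ATF4 is made, and ATF4 drives genes of amino acid synthesis and uptake. Unfolded proteins in the endoplasmic reticulum (ER) also engage ATF6 and the XBP1 route, which drive ER chaperones, whereas unfolded proteins in the cytosol release HSF1, which drives heat shock genes. Oxidants and electrophiles release NRF2, which drives genes of glutathione, iron and haem metabolism. Cytoplasmic dynein carries cargo, autophagosomes among it, along microtubules towards the cell centre.

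Changes are given on the log2(FPKM + 1) scale, on which a change of 1 is called 2-fold, and this scale understates the changes of genes with low values. At 2.5 µM, 81 genes (0.703% of the 11525) were at least 2-fold higher than with DMSO and 33 (0.286%) at least 2-fold lower. At 5 µM, 219 genes (1.9%) were at least 2-fold higher and 140 (1.21%) at least 2-fold lower. Between the doses, 64 genes (0.555%) were at least 2-fold higher at 5 µM than at 2.5 µM and 5 (0.0434%) at least 2-fold lower. Most genes stayed near their DMSO level. The change at 2.5 µM had a median of -0.01 and a standard deviation across genes of 0.31, and 91.3% of genes lay within 0.5 of no change. At 5 µM the median was -0.08, the standard deviation 0.45 and the share within 0.5 of no change 78.0%. Above DMSO were 48.0% of the genes at 2.5 µM and 41.6% at 5 µM, the background for the counts of list members above or below DMSO. The balance of higher and lower genes at 5 µM depends on how the libraries are scaled. With FPKM totals made equal, which lowers the median change at 5 µM by 0.12, the counts were 169 higher and 253 lower, and with quantile normalization they were 251 higher and 90 lower.

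The depth of the libraries is unknown, since the values are FPKM without read counts. FPKM totals were 522573 with DMSO, 548289 at 2.5 µM and 575290 at 5 µM, and between 898 and 1077 of the 16760 genes were listed at 0 in a library. Of 11 markers of lung adenocarcinoma epithelium, 10 were at 1 FPKM or more (3770, 3820 and 4220 summed FPKM with DMSO, 2.5 µM and 5 µM). These markers check the tissue and do not tell the line from other lung epithelial lines. SFTPB, a surfactant protein gene of mature alveolar cells, was the exception at no more than 0.45 FPKM. Of the markers of other cells, CD14 (6.17, 3.94 and 3.07 FPKM in DMSO cells, 2.5 µM and 5 µM), COL1A1 (1.38, 0.98 and 1.22 FPKM) and TP63 (1.58, 1.35 and 1.84 FPKM) reached 1 FPKM. Markers of endothelial and neuroendocrine cells did not reach that level in any of the 3 libraries.

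Of the 11525 genes, 376 (3.26%) were at least 2-fold from DMSO at 1 or both doses, and these were sorted by the shape of their change over dose. A gene was called alike when its changes at the 2 doses lay within 0.5 of each other, mostly at 5 µM when it was within 0.5 of DMSO at 2.5 µM and moved by at least 0.5 between the doses, and stepwise when both steps were at least 0.5 in the same direction. Alike genes were 102 higher and 98 lower. Genes that moved mostly at 5 µM were 65 higher and 19 lower, and stepwise genes were 60 higher and 25 lower. Alike genes were thus the most frequent, but with a margin of 0.3 in place of 0.5 stepwise genes were, at 123 higher and 103 lower against 61 and 35 alike. The remaining 7 genes moved at 2.5 µM and came back by at least 0.5 at 5 µM, and 9 of the 376 genes were on opposite sides of DMSO at the 2 doses, 0 of them by 0.5 or more at both. The comparisons of both doses share the DMSO library, so an error of that library shifts a gene alike at both doses, and an error of the 2.5 µM library looks like a return. The plot of the change at 5 µM against the change at 2.5 µM shows these classes.

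**Figure D1:**
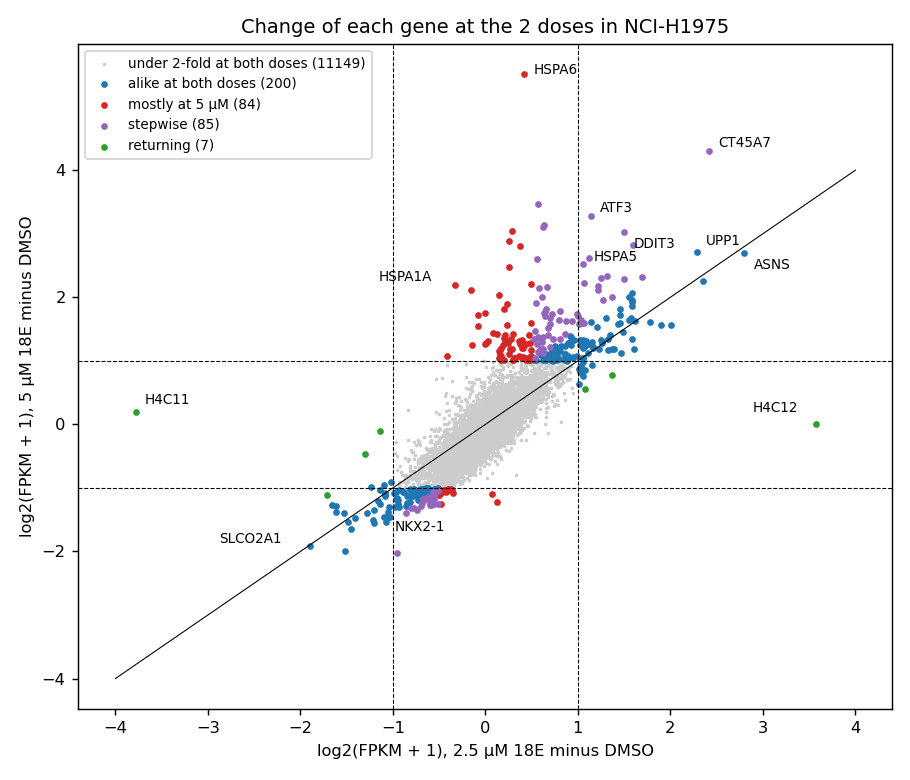
Change of each of 11525 genes from DMSO at 2.5 µM 18E (horizontal axis) and at 5 µM 18E (vertical axis), both on the log2(FPKM + 1) scale, coloured by dose shape. Dashed lines mark 2-fold and the solid line marks equal change, and HSPA6 stands farthest above that line, with changes of 0.42 and 5.51.

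The genes of amino acid synthesis and uptake that ATF4 is known to drive were higher at 2.5 µM, and as a group no higher at 5 µM. All 22 listed genes were among the genes described. Of these, 8 were at least 2-fold higher at 2.5 µM and 8 at 5 µM, none was 2-fold lower, and the list median was 0.76 at 2.5 µM and 0.58 at 5 µM. With equal FPKM totals 7 were at least 2-fold higher at each dose, PHGDH being at 0.99 and 0.90. From 2.5 to 5 µM, 16 of the 22 went down, and the median step over all 22 was -0.11. That is near the background, since the median step over all 11525 genes was -0.07 and 36.2% of them went up. ASNS, which makes asparagine (chr7:97852118-97872542, minus strand, GRCh38), was at 47.4 FPKM in the DMSO library, 337 at 2.5 µM and 313 at 5 µM, a change of 2.80 and 2.70. PSAT1, the second enzyme of serine synthesis, was at 87.5, 228 and 202 FPKM, and PHGDH, the first, at 25.3, 53.7 and 52.98 FPKM in the same order. The third enzyme, PSPH, was at 45.1, 73.0 and 61.7 FPKM and stayed under 2-fold. All 3 serine enzymes were thus highest at 2.5 µM.

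PCK2, mitochondrial phosphoenolpyruvate carboxykinase, had the same order, at 6.07 FPKM in DMSO cells, 20.1 at 2.5 µM and 16.9 at 5 µM. CTH, which makes cysteine from cystathionine, was at 4.55, 14.2 and 17.2 FPKM, and PYCR1, of proline synthesis, at 37.8, 81.0 and 94.3 FPKM. CTH and PYCR1 were highest at 5 µM. Among transporters, SLC7A11, the cystine carrier, was at 2.97, 10.9 and 13.4 FPKM. Its partner subunit SLC3A2 was at 136, 247 and 323 FPKM, whereas SLC7A5, which pairs with SLC3A2 to carry large neutral amino acids, was at 144, 258 and 231 FPKM. The cystine carrier and SLC3A2 were therefore highest at 5 µM, and SLC7A5 at 2.5 µM. SLC38A2 and ALDH18A1 were the 2 listed genes below DMSO, by -0.14 and -0.22 at 2.5 µM. The cytosolic aminoacyl-tRNA synthetases, which charge tRNAs and include known ATF4 targets, had a median of 0.42 at 2.5 µM and 0.36 at 5 µM. All 20 were above DMSO at 2.5 µM and 16 at 5 µM, and AARS1 (58.4, 128 and 129 FPKM) was the 1 member past 2-fold. With equal FPKM totals AARS1 was at 0.998 at 5 µM, and no member reached 2-fold there.

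The stress transcription factors and their feedback genes held plateau genes, stepwise genes and others under 2-fold at both doses. The list of 17 had a median of 0.85 at 2.5 µM and 0.93 at 5 µM, with 6 members at least 2-fold higher at 2.5 µM and 7 at 5 µM. With equal FPKM totals these counts were 5 and 6, and with quantile normalization 6 and 8. ATF4 itself was at 146 FPKM in DMSO cells, 257 at 2.5 µM and 276 at 5 µM, under 2-fold at both doses. CHAC1, which breaks down glutathione, was at 1.55, 12.0 and 11.2 FPKM, and GDF15, a secreted stress factor, at 19.8, 42.0 and 46.7 FPKM. Those 2 genes were at nearly their full change at the lower dose. DDIT3, the pro-apoptotic factor CHOP (chr12:57516588-57521737, minus strand), was at 18.2, 53.3 and 156 FPKM, a change of 1.5 and then 3.03. ATF3, a repressor of the ATF family (chr1:212565334-212620777, plus strand), was at 5.36, 13.0 and 60.8 FPKM, a change of 1.14 and then 3.28. PPP1R15A, which recruits the phosphatase of eIF2, was at 17.2, 27.5 and 61.1 FPKM, and SESN2, an inhibitor of mTORC1, at 3.58, 9.67 and 19.8 FPKM. All 4 of these genes were stepwise, and each was at least 0.96 higher at 5 µM than at 2.5 µM. VLDLR, a lipoprotein receptor, was the list member farthest below DMSO, at 3.00, 1.83 and 1.28 FPKM.

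Promoter sequences are shown for ASNS, HSPA5, XBP1, HSPA6 and MKI67, because each carries the motif through which its gene group is known to be controlled and each gene is described here. They are the 150 bases before the transcription start in RefSeq (GRCh38.p14), written 5′ to 3′ on the strand of the gene, and capitals mark the motif. The windows are chr7:97872409-97872558 (minus strand) for ASNS, chr9:125241344-125241493 (minus strand) for HSPA5, chr22:28800570-28800719 (minus strand) for XBP1, chr1:161524390-161524539 (plus strand) for HSPA6 and chr10:128126424-128126573 (minus strand) for MKI67.
ASNS: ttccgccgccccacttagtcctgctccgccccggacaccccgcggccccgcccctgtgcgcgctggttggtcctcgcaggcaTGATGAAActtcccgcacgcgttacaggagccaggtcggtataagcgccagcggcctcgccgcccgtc
HSPA5: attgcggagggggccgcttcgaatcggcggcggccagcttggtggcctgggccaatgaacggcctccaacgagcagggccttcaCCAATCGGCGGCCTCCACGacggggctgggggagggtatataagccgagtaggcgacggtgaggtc
XBP1: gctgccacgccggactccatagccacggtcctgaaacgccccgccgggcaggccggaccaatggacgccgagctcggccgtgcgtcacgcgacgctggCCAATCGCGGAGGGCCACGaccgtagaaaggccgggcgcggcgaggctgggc
HSPA6: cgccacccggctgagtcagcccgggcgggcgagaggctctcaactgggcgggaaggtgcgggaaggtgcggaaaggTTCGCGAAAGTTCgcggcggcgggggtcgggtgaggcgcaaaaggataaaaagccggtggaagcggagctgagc
MKI67: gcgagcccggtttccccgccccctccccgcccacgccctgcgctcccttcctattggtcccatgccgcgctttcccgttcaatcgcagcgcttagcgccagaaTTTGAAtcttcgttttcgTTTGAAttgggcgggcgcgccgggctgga

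These 4 motifs and 2 others were searched on both strands of windows from 250 bases before to 50 bases after the start, which RefSeq gave for 9387 of the 11525 genes (81.4%), and matches of different motifs were allowed to overlap. In ASNS the core of the amino acid response element, TGATGNAA, begins 68 bases before the start. This core was present in 1.57% of all searched promoters, in 3 of 16 promoters of the ATF4 amino acid list (ASNS, SLC3A2 and SLC7A1) and in 2 of 16 of the stress factor list (ATF3 and CHAC1). In HSPA5 and XBP1 the capitals mark the ER stress element, CCAAT and CCACG held 9 bases apart, beginning 66 and 52 bases before the start. It was present in 12 of all 9387 promoters (0.128%) and in 5 of 16 promoters of the ER chaperone list, those of HSPA5, HSP90B1, CALR, CANX and CRELD2, and in 1 of 17 of the ER-associated degradation list, that of XBP1. In HSPA6 the capitals mark a heat shock element, here GAA and TTC in turn, 3 units with 2 bases between them, beginning 74 bases before the start. This arrangement was present in 0.298% of all searched promoters and in 5 of 19 of the heat shock list (HSPA6, HSPA8, DNAJA1, CHORDC1 and SERPINH1). Of these HSPA6 changed by 5.51 at 5 µM, and the others by 0.34 to 0.86. In MKI67 the capitals mark TTTGAA, a form of the cell cycle homology region, 47 and 29 bases before the start. TTTGAA or TTCGAA was present in 11.0% of all searched promoters and in 20 of 29 of the G2 and mitosis list (69.0%). The antioxidant response element core, TGACNNNGC, was present in 15.4% of all searched promoters and in 4 of 13 of the NRF2 list, those of TXNRD1, GCLM, PGD and ME1, which were all within 0.39 of DMSO at 5 µM. The metal response element core, TGCNCNC, was present in 63.5% of all searched promoters and in 4 of 5 of the metallothionein and zinc list. The lists were drawn up around known gene groups, so these shares describe the lists and not the response. By dose shape, the heat shock element was present in 1 of 49 promoters higher mostly at 5 µM and 0 of 47 higher stepwise. TGATGNAA was present in 5.75% of promoters higher alike, 4.08% higher mostly at 5 µM and 10.6% higher stepwise, against 4.94% lower alike. A match describes letters in a window and was not tested as a binding site.

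The ER chaperones were higher mainly at 5 µM. Of 18 listed genes 17 were among the genes described, ERO1B being under 1 FPKM. At 2.5 µM 1 was at least 2-fold higher and at 5 µM 7 were, with a median of 0.28 and then 0.64, and 16 of 17 went up from 2.5 to 5 µM. HSPA5, the ER chaperone BiP (chr9:125234853-125241330, minus strand), was at 173 FPKM in DMSO cells, 358 at 2.5 µM and 997 at 5 µM, a change of 1.05 and 2.52. HSP90B1, the ER form of HSP90, was at 154, 235 and 379 FPKM. The co-chaperones DNAJB9 (5.61, 6.58 and 22.2 FPKM) and DNAJB11 (58.0, 80.8 and 117 FPKM) moved mostly at 5 µM. SDF2L1, MANF and HYOU1 were the other members past 2-fold at 5 µM, by 1.11, 1.01 and 1.13. With equal FPKM totals 3 members were past 2-fold at 5 µM, HSPA5, HSP90B1 and DNAJB9, while DNAJB11 was at 0.87, MANF at 0.87, SDF2L1 at 0.97 and HYOU1 at 0.99. DNAJB11 and MANF were also under 2-fold with quantile normalization, at 0.94 and 0.95. HSPA5 at 2.5 µM was at 0.98 with equal totals and 0.96 with quantiles, which left 0 members past 2-fold at that dose. The disulfide isomerases PDIA3, PDIA4 and PDIA6 stayed between 0.16 and 0.45 above DMSO, and ERO1A, the oxidase that serves them, was 0.34 below DMSO at 5 µM.

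Of the 20 genes of ER-associated degradation and the XBP1 axis, 0 were 2-fold higher at 2.5 µM and 3 at 5 µM, with medians of 0.11 and 0.35. With equal FPKM totals 2 were 2-fold higher at 5 µM, DERL3 being at 0.97. HERPUD1, an ER membrane protein of this degradation route, was at 9.14, 14.5 and 39.7 FPKM, a change of 0.61 and 2.00. XBP1, the transcription factor activated by splicing of its own RNA, was at 43.5, 84.0 and 109 FPKM, and gene-level FPKM do not separate its spliced form. DERL3, a channel component, was at 1.69, 3.36 and 4.65 FPKM. EDEM1, EDEM3 and SEL1L, which select and pass on misfolded glycoproteins, were at -0.01, -0.32 and 0.00 from DMSO at 5 µM. HERPUD1 and DDIT3 were thus stepwise, while XBP1 was alike at both doses.

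Heat shock genes had the sharpest difference between the doses. All 20 listed genes were higher at 5 µM than at 2.5 µM, by a median of 0.76, although 13 of the 20 were below DMSO at 2.5 µM. The list median was -0.11 at 2.5 µM and 0.66 at 5 µM, and the number at least 2-fold higher was 1 and 7. With equal FPKM totals 6 were past 2-fold at 5 µM, HSPH1 being at 0.94. HSPA6, an HSP70 gene that is nearly silent in unstressed cells (chr1:161524540-161526910, plus strand), was at 1.30 FPKM in DMSO cells, 2.07 at 2.5 µM and 104 at 5 µM. HSPA1A was at 105, 83.7 and 487 FPKM and HSPA1B at 86.0, 76.99 and 377 FPKM. These HSP70 genes are close in sequence, and HSPA1A and HSPA1B nearly identical, so the division of reads among them is uncertain. All 3 were low at 2.5 µM and high at 5 µM.

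HSPH1, an exchange factor of HSP70, was at 64.7, 48.0 and 138 FPKM, and DNAJB1, an HSP40, at 92.5, 72.1 and 150 FPKM. ZFAND2A, a stress-induced protein of the proteasome pathway, was at 55.0, 81.5 and 337 FPKM, and the small heat shock gene HSPB8 at 7.22, 22.2 and 39.1 FPKM. These last 2 were stepwise, unlike the other heat shock genes named. CRYAB was listed at 0 with DMSO and at 2.5 µM and was at 1.41 FPKM at 5 µM. Among the abundant constitutive chaperones, HSPA8 was at 1122, 838 and 1420 FPKM, a step of 0.76 between the doses that equals the median step of the list, although it was under 2-fold from DMSO at both. HSP90AB1 moved less, at 890, 811 and 1001 FPKM, as did the mitochondrial chaperone HSPD1, at 777, 756 and 845 FPKM. The plot of FPKM over dose sets the plateau of ASNS beside the late step of HSPA6.

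**Figure D2:**
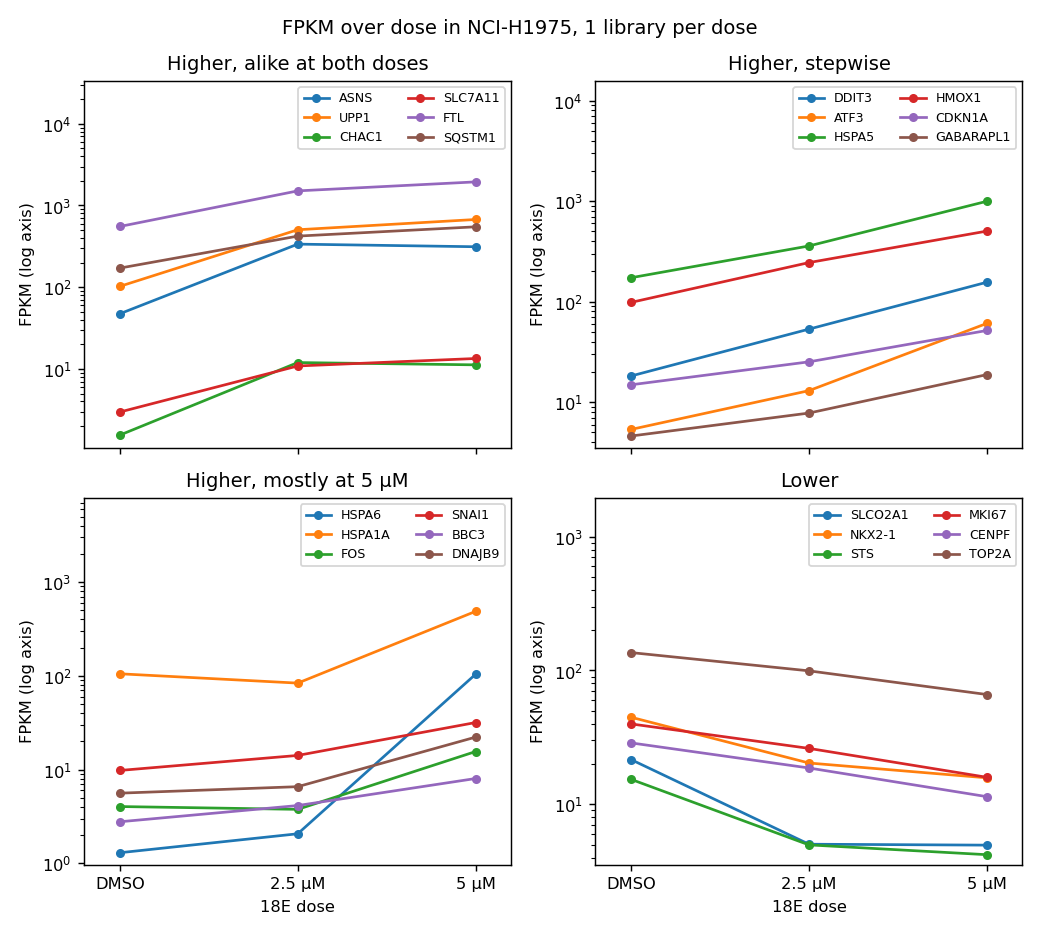
FPKM (log axis) of 24 genes in the DMSO, 2.5 µM and 5 µM libraries of NCI-H1975, 1 point per library, in 4 panels by direction and dose shape. ASNS and CHAC1 are nearly level between the doses, DDIT3 and HSPA5 climb at both steps, HSPA6 and HSPA1A climb mainly from 2.5 to 5 µM, and SLCO2A1 is as low at 2.5 µM as at 5 µM.

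The NRF2 list was divided. Of 26 listed genes with values, 21 reached 1 FPKM, and 4 were at least 2-fold higher at 2.5 µM and 5 at 5 µM, with medians of 0.16 and 0.30. HMOX1, which breaks down haem (chr22:35380361-35394214, plus strand), was at 98.3 FPKM in DMSO cells, 245 at 2.5 µM and 503 at 5 µM. The ferritin light chain gene FTL was at 554, 1510 and 1945 FPKM, and the heavy chain gene FTH1 at 2651, 4379 and 5011 FPKM. BLVRB, which acts downstream of haem breakdown, was at 42.3, 99.5 and 124 FPKM, and OSGIN1 at 6.76, 11.6 and 23.9 FPKM. The members past 2-fold at 5 µM were HMOX1, SLC7A11, FTL, OSGIN1 and BLVRB, of which HMOX1, FTL and BLVRB act in haem and iron handling. Classic NRF2 targets of glutathione synthesis and quinone reduction were near DMSO, with GCLM at 20.8, 22.04 and 22.2 FPKM, GCLC at 22.5, 22.7 and 20.8 FPKM and NQO1 at 248, 273 and 306 FPKM. AKR1B10, an aldo-keto reductase, was lower, at 16.1, 8.17 and 8.91 FPKM. SLC7A11 is also on the ATF4 list. The 7 metallothionein and zinc genes that reached 1 FPKM had a median of -0.04 and then 0.20, the latter -0.13 over those with at least 5 FPKM. Of these, MT1X (36.4, 58.2 and 74.7 FPKM) was 2-fold higher at 5 µM, by 1.02, and MT2A was at 980, 843 and 746 FPKM. MT1X was under 2-fold when scaled by equal totals, at 0.88, or by quantiles, at 0.98.

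Proteasome subunit genes were mostly higher by a small amount, with changes from -0.08 to 0.70 at 5 µM. At both doses 30 of the 31 subunits were above DMSO, with a median of 0.26 at 2.5 µM and 0.36 at 5 µM, and none reached 2-fold. PSMC6, an ATPase subunit of the regulatory particle, had the largest change, at 57.4, 75.9 and 93.6 FPKM. The median at 5 µM stayed above 0 under other scalings, at 0.22 with equal totals of FPKM and 0.25 with quantile normalization.

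Autophagy genes were of direct interest because the series title names autophagy. As a list they were near DMSO, and a few single genes stood well above it. Of the 36 listed genes of the autophagosome machinery 35 were described, with a median of 0.09 at 2.5 µM and 0.03 at 5 µM, the latter becoming -0.09 with equal FPKM totals. At least 2-fold higher were 1 at 2.5 µM and 4 at 5 µM. GABARAPL1, an ATG8-family protein that coats autophagosomes (chr12:10212458-10223130, plus strand), was at 4.61, 7.80 and 18.8 FPKM, a change of 0.65 and 1.82. MAP1LC3B, the main LC3 gene, was at 61.2, 93.6 and 131 FPKM, and its close copy MAP1LC3B2 at 16.3, 35.4 and 41.6 FPKM, with uncertain division of reads between them. WIPI1, which binds the forming membrane, was at 3.51, 6.07 and 8.44 FPKM. With equal FPKM totals WIPI1 and MAP1LC3B were under 2-fold at 5 µM, both at 0.95.

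The other ATG8 genes, GABARAP (121, 121 and 134 FPKM) and GABARAPL2 (76.8, 72.4 and 71.2 FPKM), were near DMSO, as was BECN1, of the lipid kinase complex, at 53.7, 53.2 and 51.6 FPKM. Of 14 receptors 1 was 2-fold higher at each dose, and their median was -0.02 at 2.5 µM and 0.07 at 5 µM, the latter -0.07 when scaled by equal totals. This was SQSTM1, the cargo receptor p62 (chr5:179806398-179838078, plus strand), at 171 FPKM in DMSO cells, 422 at 2.5 µM and 549 at 5 µM. CCPG1, an ER autophagy receptor, was at 6.75, 10.8 and 12.1 FPKM, and BNIP3L, a mitochondrial receptor, at 32.8, 23.6 and 21.5 FPKM. Of 34 lysosomal genes CTSL, a cathepsin, was 2-fold higher at 5 µM (175, 302 and 361 FPKM, a change of 1.04, and under 2-fold when scaled by equal totals, at 0.91, or by quantiles, at 0.90). MCOLN1, the lysosomal calcium channel, was at 7.74, 11.4 and 15.9 FPKM, and LAMP2, a membrane protein, at 79.7, 58.4 and 50.1 FPKM. The lysosomal median was 0.03 at 2.5 µM and -0.05 at 5 µM, and the former became -0.04 with equal FPKM totals. Among 19 mTORC1 and TFEB control genes SESN2 was past 2-fold at both doses, while MTOR was at 10.6, 9.05 and 6.81 FPKM. Their median was 0.09 at 2.5 µM and 0.02 at 5 µM, the latter -0.04 when scaled by equal totals.

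Cytoplasmic dynein 1 genes were within 0.60 of DMSO at both doses. Of 12 genes described, 0 were 2-fold from DMSO at either dose, and the list median was -0.06 at 2.5 µM and -0.09 at 5 µM. DYNC1LI1, the gene named in the series title by the alias LIC1 (chr3:32525971-32570874, minus strand), was at 21.4, 26.5 and 29.4 FPKM, 0.30 above DMSO at 2.5 µM and 0.45 at 5 µM. Its relative DYNC1LI2 was at 43.9, 36.2 and 30.4 FPKM, and the heavy chain gene DYNC1H1 at 34.9, 31.0 and 22.7 FPKM. The light intermediate chain genes were therefore on opposite sides of DMSO at both doses, under each of the scalings tried for DYNC1LI1 and DYNC1LI2. These values are RNA levels and do not bear on the dynein proteins. Among 12 tubulin genes (median 0.16 and then 0.43) TUBA4A was 2-fold higher at 5 µM (65.8, 112 and 135 FPKM), but under 2-fold at 0.89 when scaled by equal totals and at 0.98 by quantiles.

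Genes of G2 and mitosis were lower at both doses, with more distance at 5 µM. Of 35 genes 33 were below DMSO at 2.5 µM and 34 at 5 µM, with a median of -0.32 and then -0.61. None was 2-fold lower at 2.5 µM and 6 were at 5 µM. MKI67, the proliferation antigen Ki-67 (chr10:128096659-128126385, minus strand), was at 39.9 FPKM in DMSO cells, 26.2 at 2.5 µM and 15.9 at 5 µM. CENPF, a kinetochore protein (chr1:214603195-214664588, plus strand), was at 28.8, 18.7 and 11.4 FPKM, and TOP2A, the topoisomerase that separates sister chromatids, at 136, 99.3 and 66.1 FPKM. BUB1B, KIF14 and KIF20A were the other 3 past 2-fold, at -1.05, -1.14 and -1.13. BUB1B was at -0.96 with quantile normalization. CCNB1, the mitotic cyclin, was at 273, 206 and 178 FPKM and CDK1, its kinase, at 129, 122 and 109 FPKM. CDC20, MAD2L1 and CDC25C were within 0.17 of DMSO at 5 µM, and HMMR was above it at both doses, so the list did not move as 1 block.

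The kinesins, microtubule motors of which several act in mitosis, had the lowest median at 5 µM of the gene symbol families with at least 12 members, -0.53. Of 27 kinesin genes 25 were below DMSO at 5 µM, where 41.6% of all genes were above it. Kinesins outside mitosis were among them, such as KIF5B, a transport motor (28.7, 23.6 and 19.5 FPKM), and KIF3C (17.5, 11.7 and 9.53 FPKM). KIF9 and KIF25 were above DMSO, by 0.31 and 0.28. The family was picked out after its values were seen.

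Genes of G1/S and DNA replication were lower by less, with a median of -0.11 at 2.5 µM and -0.37 at 5 µM. At 5 µM 26 of 32 were below DMSO, where 41.6% of all genes were above it. E2F2, a transcription factor of S phase entry, was at 3.40, 2.56 and 1.43 FPKM. CCNE1, cyclin E1, went the other way, at 8.19, 13.5 and 18.8 FPKM, a change of 1.11 at 5 µM that was 0.98 with equal FPKM totals. MCM2, CDC6 and E2F1 were above DMSO at 2.5 µM, by 0.25, 0.15 and 0.23. Fewer cycling cells and less RNA per cell cannot be told apart in bulk libraries, here as for the other lists.

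Of 22 stress genes of growth arrest, repair and apoptosis, 0 were 2-fold higher at 2.5 µM and 8 at 5 µM. The median was 0.15 and then 0.26. CDKN1A, the cyclin kinase inhibitor p21, was at 14.9, 25.2 and 51.7 FPKM, and GADD45A, a growth arrest gene, at 13.5, 20.6 and 63.4 FPKM. Its relatives GADD45B (24.4, 26.7 and 67.0 FPKM) and GADD45G (0.32, 0.62 and 2.52 FPKM) moved mostly at 5 µM. The pro-apoptotic BH3-only genes BBC3 (2.78, 4.14 and 8.04 FPKM) and PMAIP1 (30.0, 36.4 and 69.2 FPKM) did so too. Other members were near or below DMSO at 5 µM, with MDM2 at 6.33, 6.13 and 5.25 FPKM, XPC at 10.5, 9.36 and 7.29 FPKM, and ZMAT3 at 1.34, 1.35 and 1.18 FPKM. In the BCL2 family only BBC3 and PMAIP1 of 15 genes passed 2-fold, both at 5 µM, joined by BMF at -1.06 with equal FPKM totals, and the median was 0.06 and then 0.08, the latter -0.06 when scaled by equal totals. BMF, another BH3-only gene, was at 3.86, 2.61 and 1.5 FPKM, and the survival gene MCL1 at 90.1, 83.1 and 83.7 FPKM.

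Immediate early genes, which respond within minutes to growth factors or stress, were higher mainly at 5 µM. Of 20 genes 0 were 2-fold higher at 2.5 µM and 7 at 5 µM, with medians of 0.19 and 0.43. With equal FPKM totals 5 were 2-fold higher at 5 µM, with JUN at 0.99 and IER3 at 0.92, and 5 with a trend on transcript length removed. FOS was at 4.04, 3.77 and 15.6 FPKM, and ARC at 0.15, 0.41 and 8.52 FPKM. MYC, the growth regulator, was at 107, 150 and 241 FPKM, and JUN, a partner of FOS, at 20.3, 33.8 and 45.5 FPKM. EGR1 (17.7, 19.8 and 22.5 FPKM) and JUNB (69.0, 70.9 and 87.5 FPKM) stayed within 0.34 of DMSO. In the EGFR and MAPK list, the ligand gene HBEGF (2.32, 3.66 and 14.4 FPKM) and DUSP1, a phosphatase of stress kinases (12.2, 30.2 and 63.6 FPKM), were 2-fold higher at 5 µM. EGFR itself was at 25.4, 23.3 and 17.5 FPKM, ERBB2 at 30.3, 20.7 and 16.4 FPKM and ERBB3 at 20.96, 17.2 and 12.1 FPKM, so the 3 receptor genes were lowest at 5 µM. SPRY1, a feedback inhibitor of receptor signals, was lower, at 3.91, 1.97 and 1.27 FPKM, and DUSP6, a direct reporter of ERK activity, was at 2.04, 2.15 and 2.51 FPKM. The list median was -0.12 at 2.5 µM and -0.15 at 5 µM.

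Lineage genes of the epithelial and mesenchymal kinds moved in opposite directions in part. NKX2-1, the transcription factor of lung epithelium (chr14:36516392-36521149, minus strand), was at 44.7 FPKM in DMSO cells, 20.3 at 2.5 µM and 15.8 at 5 µM. FOXA2 (12.3, 7.34 and 5.67 FPKM) and GRHL2 (18.0, 13.3 and 8.53 FPKM), other epithelial transcription factors, were also lowest at 5 µM and just under 2-fold from DMSO. Structural epithelial genes stayed under 2-fold and went both ways. The cadherin gene CDH1 was at 75.1, 59.4 and 49.5 FPKM, and the keratin gene KRT7 at 1154, 1507 and 1681 FPKM. EPCAM was at 421, 408 and 366 FPKM and KRT8 at 599, 481 and 609 FPKM. NKX2-1 was the 1 epithelial gene 2-fold lower at 5 µM, against 4 with equal FPKM totals, and the median of the 18 epithelial genes was -0.25 at 2.5 µM and -0.23 at 5 µM. Of the 6 mesenchymal genes that reached 1 FPKM, 4 were above DMSO at both doses, with a list median of 0.44 and then 0.88. SNAI1, a repressor of epithelial genes, was at 9.80, 14.2 and 31.8 FPKM, and VIM, the filament protein vimentin, at 86.1, 117 and 152 FPKM. FN1 and SPARC, matrix genes, were below DMSO at both doses, and ZEB1, ZEB2 and CDH2 did not reach 1 FPKM.

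Interferon-stimulated genes were higher at 5 µM in 23 of 32 cases, against 41.6% of all genes. Their median was 0.09 at 2.5 µM and 0.29 at 5 µM. At 5 µM 4 were 2-fold higher and 1 was lower, and with a trend on transcript length removed 2 were higher. ISG20, an RNase, was at 7.05, 18.4 and 30.1 FPKM, and RSAD2, the antiviral enzyme viperin, at 4.29, 8.28 and 17.2 FPKM. IFITM1, a membrane protein that blocks virus entry, was 2-fold lower at both doses, at 211, 95.4 and 103 FPKM. Of 14 cytokine and NF-kB feedback genes, IL11 (4.03, 14.2 and 34.6 FPKM) and IL6 (3.18, 3.28 and 9.35 FPKM) were 2-fold higher at 5 µM, and the median was 0.00 and then 0.58. A further 10 genes of that list, CXCL1 and TNF among them, did not reach 1 FPKM. TNFAIP2 was at 104, 111 and 74.6 FPKM.

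Replication-dependent histone genes, whose RNA normally lacks a poly(A) tail, had a median of 0.50 at 2.5 µM and 0.46 at 5 µM over 15 genes, in the opposite direction to the replication genes, with 1 and then 3 genes at least 2-fold higher. H2BC12 was at 102, 194 and 194 FPKM and H4C8 at 2.68, 9.97 and 13.2 FPKM. Whether libraries were selected for poly(A) is not given in the sources used here. Ribosomal protein genes had a median of 0.17 at 2.5 µM and 0.30 at 5 µM, and all 30 were above DMSO at 5 µM, but that median was 0.03 with quantile normalization. Genes of the respiratory chain (-0.04 and 0.07), cholesterol synthesis (-0.08 and -0.10) and glycolysis (-0.12 and -0.08) had medians near 0, and that of the respiratory chain at 5 µM was -0.07 with equal FPKM totals. The 28 reference genes had a median of 0.06 at 2.5 µM and 0.14 at 5 µM, and at 5 µM 0.00 when scaled by equal totals and -0.05 by quantiles. SREBF1, the regulator of fatty acid synthesis, was at 39.3, 26.2 and 20.1 FPKM and SCD, its desaturase target, at 224, 168 and 138 FPKM. Of 12 genes of fatty acid synthesis 10 were below DMSO at 5 µM (median -0.11 and then -0.29), where 41.6% of all genes were above it.

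The genes with the largest changes were of varied function, and many lay outside the lists. UPP1, which splits uridine for salvage (chr7:48088628-48108733, plus strand), was at 102 FPKM in DMSO cells, 505 at 2.5 µM and 674 at 5 µM, a change of 2.29 and 2.71. VGF, a secreted neuropeptide precursor, was at 9.81, 42.5 and 31.2 FPKM, and NOS3, endothelial nitric oxide synthase, at 8.27, 27.4 and 20.02 FPKM. ANGPTL4, an inhibitor of lipoprotein lipase, was at 2.60, 10.6 and 17.0 FPKM. UPP1 and ANGPTL4 were highest at 5 µM, and VGF and NOS3 at 2.5 µM. CT45A7, a cancer/testis gene of a family of close copies on the X chromosome, was at 0.28, 5.86 and 24.1 FPKM, and how reads divide among the copies is uncertain. The near-identical pair RFPL4A (0.17, 0.74 and 12.0 FPKM) and RFPL4AL1 (0.00, 0.29 and 5.99 FPKM) moved with the heat shock genes, mainly at 5 µM. ADM, the peptide adrenomedullin, was at 0.37, 1.11 and 10.8 FPKM, ANKRD1, a mechanical stress gene, at 0.33, 1.06 and 10.7 FPKM and RRAD, a small GTPase, at 0.48, 0.77 and 9.94 FPKM. These 3 genes were at no more than 1.11 FPKM with DMSO and at 2.5 µM, so their folds depend on the pseudocount: with 0.1 in place of 1 the changes at 5 µM were 4.53 for ADM, 4.65 for ANKRD1 and 4.11 for RRAD, against 3.11, 3.13 and 2.89.

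The 10 genes farthest below DMSO at 5 µM were ranked among genes with at least 5 FPKM in a library. Of these 10, 9 were alike at both doses by the margin of 0.5. Among them CEACAM19, RHOBTB3, HMGB3, COL13A1 and NKX2-1 moved by -0.47 to -0.35 between the doses and would not be alike with a margin of 0.3. SLCO2A1, the prostaglandin transporter (chr3:133928145-134052184, minus strand), was at 21.6 FPKM in DMSO cells, 5.03 at 2.5 µM and 4.95 at 5 µM, a change of -1.90 and -1.92. STS, steroid sulfatase (chrX:7219456-7354810, plus strand), was at 15.4, 4.97 and 4.20 FPKM, and TCN1, a vitamin B12 carrier, at 11.2, 2.86 and 4.06 FPKM. GALNT6, which starts O-linked glycans, was at 15.7, 6.13 and 4.89 FPKM, and RHOBTB3 at 56.6, 26.4 and 18.9 FPKM. All 5 were alike by the margin of 0.5, and TCN1 is not among the 10. PEG10, an imprinted retrotransposon-derived gene, was stepwise, at 111, 60.7 and 41.7 FPKM. From 2.5 to 5 µM the 5 genes at least 2-fold lower included H4C12 and DGCR6, and DGCR6 was at 7.67, 8.45 and 2.71 FPKM.

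The 7 genes that came back at 5 µM were led by histone genes of near-identical sequence. H4C12 was listed at 0 with DMSO and at 5 µM and was at 10.9 FPKM at 2.5 µM, while H4C11 was at 12.8 FPKM in DMSO cells, listed at 0 at 2.5 µM and at 14.8 FPKM at 5 µM. Both encode the same histone H4 protein, so the assignment of reads between them is uncertain. EIF3CL, a close copy of EIF3C, was at 6.58, 2.45 and 6.02 FPKM, with the same uncertainty. PGF, a growth factor of the VEGF family, was at 10.6, 3.74 and 7.47 FPKM, LYPD1 at 4.60, 0.71 and 1.59 FPKM and PAK6, a kinase, at 1.40, 4.07 and 2.53 FPKM. The seventh was H2AC7, at 0.00, 1.59 and 0.70 FPKM.

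The direction of change went with transcript length. Over 11252 genes (97.6%) with an entry in GENCODE 29, the median length of the longest transcript was 3629 bases. For genes at least 2-fold higher at 5 µM it was 2027 bases and for genes 2-fold lower 4960 bases. In the shortest of 5 equal groups by length (median 1600 bases) the median change was 0.11 at 2.5 µM and 0.15 at 5 µM, and in the longest (median 7457 bases) it was -0.12 and -0.29. At 5 µM the shortest group held 112 genes 2-fold higher and 12 lower, and the longest 5 higher and 52 lower. The trend was thus present at both doses and larger at 5 µM. With a trend on length removed, an alternative chosen after the data were seen, 177 genes were 2-fold higher and 119 lower at 5 µM, and the median was 0.50 for heat shock genes, -0.66 for G2 and mitosis genes and 0.10 for ribosomal protein genes. The part of length in the changes of other genes was not tested. The plot of change by transcript length shows the groups.

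**Figure D3:**
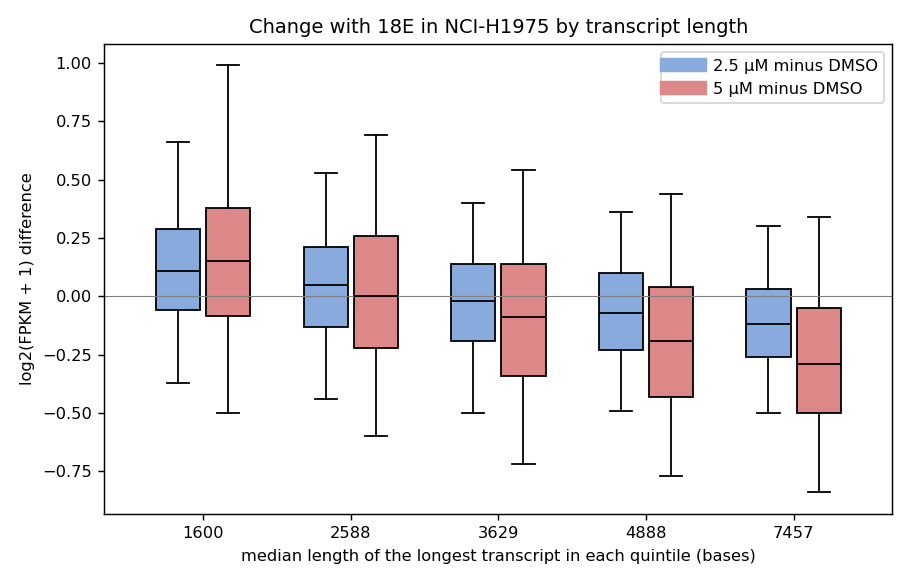
Change from DMSO at 2.5 µM (blue) and 5 µM (red), on the log2(FPKM + 1) scale, in 5 equal groups of genes by the length of the longest transcript, labelled by the median length in bases. Boxes span the quartiles with a line at the median and whiskers span the 5th to the 95th percentile, and the median at 5 µM goes from 0.15 in the shortest group to -0.29 in the longest.

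HCC827, the other lung cancer line of the compound experiment, received the same doses, and its values were set beside those of NCI-H1975 for the same 11525 genes. At 2.5 µM 131 genes were at least 2-fold higher in HCC827, 30 of them shared, which is 37.0% of the NCI-H1975 genes and 22.9% of the HCC827 genes. Of the lower genes at 2.5 µM, 33 in each line, 1 was shared (3.03% of each list), and 2 of the NCI-H1975 genes were 2-fold higher in HCC827. At 5 µM 844 genes were 2-fold higher in HCC827 and 748 lower, against 219 and 140. Shared were 128 higher genes, 58.4% of the NCI-H1975 list and 15.2% of the HCC827 list, and 60 lower genes, 42.9% and 8.02%. Of the 65 genes higher mostly at 5 µM in NCI-H1975, 49 were 2-fold higher at 5 µM in HCC827, and of the 102 higher alike 45 were. HSPA6 was at 0.60, 44.3 and 1337 FPKM in HCC827, and the heat shock list median was 0.05 and 3.15 there. ASNS was at 82.3, 204 and 251 FPKM, and the ATF4 amino acid list median was 0.67 at 2.5 µM and -0.05 at 5 µM.

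The ER chaperone lists had opposite signs, their medians over the doses being 0.28 and then 0.64 in NCI-H1975, while HCC827 had -0.34 and then -0.29. The change of PDIA4 at 5 µM was 0.45 in NCI-H1975 and -1.31 in HCC827, while HSPA5 was above DMSO in both lines, by 2.52 and 1.77. The difference between the lines was tested with limma over 11953 genes, with the 2 doses standing in for replicates of treated cells. It called 0 genes at an adjusted p under 0.05 (0%), 205 had an unadjusted p under 0.05, and the smallest adjusted p was 0.999. This test leaves few degrees of freedom, and the same count of 0 under the other settings does not show that the lines responded alike. Each line has 1 DMSO library, and the residual is the difference of the doses. The p-values therefore do not measure the spread between replicates, and they favour genes that change alike at both doses. The genes below were picked by smallest p and need not have the largest differences. Each is described by the size of its difference. The smallest p was that of CLDN2, a tight junction claudin. Its mean change over the doses was -0.03 in NCI-H1975 and -2.56 in HCC827, a difference of 2.53. KRT20, a keratin gene, followed with a difference of 1.57 and a mean change of 0.02 in NCI-H1975. A gene could enter the test through HCC827 alone, and one near 0 FPKM in NCI-H1975 would also change little there. The NCI-H1975 levels of CLDN2 and KRT20 are not reported here, so a low level is not separated from a different response. The 5 genes of smallest p with the higher change in NCI-H1975 had differences from 1.56 to 2.53. The 5 in the other direction had differences from -4.32 to -1.64. They included DHRS2, a reductase, at 450, 218 and 182 FPKM in NCI-H1975 against 1.09, 10.3 and 29.4 FPKM for HCC827, an estimated difference of -4.32. CLU, the extracellular chaperone clusterin, was at 8.52, 18.9 and 22.7 FPKM in NCI-H1975 against 3.20, 80.5 and 230 FPKM for HCC827, a difference of -3.84. METTL7A was at 4.65, 1.02 and 0.95 FPKM in NCI-H1975 against 0.44, 0.53 and 1.16 FPKM for HCC827. DHRS2 and METTL7A were on opposite sides of DMSO in the lines, while CLU was above it in both. For METTL7A the HCC827 side rests on values of no more than 1.16 FPKM and a mean change of 0.34.

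**Figure D4:**
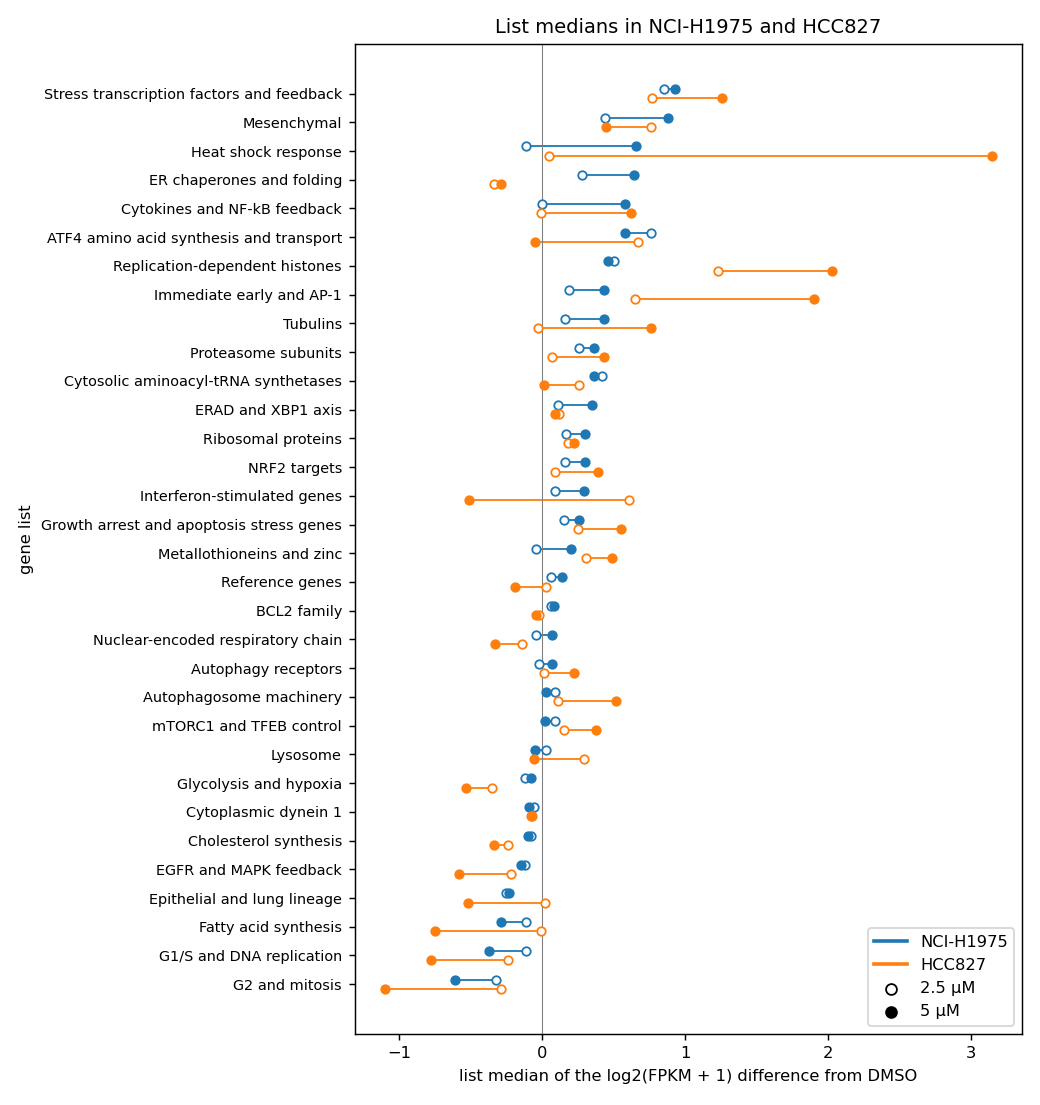
Median change from DMSO of each gene list in NCI-H1975 (blue) and HCC827 (orange) on the log2(FPKM + 1) scale, with open circles at 2.5 µM and filled circles at 5 µM joined by a line. The heat shock median at 5 µM is 0.66 in NCI-H1975 and 3.15 in HCC827, and the ER chaperone medians lie on opposite sides of 0.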

How the data were processed

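RNA was sequenced from the 3 NCI-H1975 libraries of the compound experiment, with the 3 HCC827 libraries used for comparison. Per the labels' protocols, Trizol was used for extraction and an Illumina TruSeq kit for the libraries. The authors deposited 1 table of FPKM values with 2 decimals, a unit named in its column names, per the file headers. Bowtie 0.12.2 and the builds mm8, a mouse build, and GRCh38.p12 are named without a role, per the submitters' processing notes. Not given in the sources used here are the quantification tool, the gene annotation and whether strand was used.

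Of 16800 lines 16760 were complete genes and 40 incomplete lines were left out. Columns were matched to samples by name, and 0 columns were unmatched. Genes under 1 FPKM in all 3 libraries (5235) were not described: INTS6L, USP49 and VIPR1 lay just inside at 1.00 FPKM and EID3, IL23A and SPRR3 just outside at 0.99 FPKM. Read counts are not given, so depth is unknown and no counting interval can be given. Values were taken as log2(FPKM + 1) and differences called at 2-fold by size. Dose shapes used a margin of 0.5 (1.41-fold).

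The line difference used limma 3.58.1 in R 4.3.3 on 11953 genes with at least 1 FPKM in 2 or more of 6 libraries, with a variance trend, two-sided tests and Benjamini-Hochberg adjustment. The script was tested on simulated data. Coordinates and lengths are from GENCODE 29 on GRCh38.

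The genes described and the 32 gene lists were chosen with earlier results of these data known. Named genes were the 10 with the largest change per direction and comparison among genes with at least 5 FPKM in a library, the 4 with the largest range per shape and direction, up to 5 with the largest change per list, the dynein genes, 5 per direction for the line difference, and per motif the listed gene with the largest change. Some genes that these rules select are not reported here. Other members were named after their values were seen. Alternatives were a pseudocount of 0.1, no filter, a floor of 5 FPKM, equal FPKM totals, quantile normalization, shape margins of 0.3 and 0.7, no variance trend and, added after seeing the data, removal of a length trend. The siRNA experiment was not used here. Computation used Python 3.11.15, numpy 2.4.6, pandas 2.3.3, scipy 1.17.1 and matplotlib 3.10.9.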

Additional observations from a re-analysis of the deposited data

Results flagged for a closer look

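The ER chaperone and folding genes had medians on opposite sides of DMSO in the lines at both doses, 0.28 (2.5 µM) and 0.64 (5 µM) in NCI-H1975 against -0.34 and then -0.29 for HCC827. What drew attention is that both treated libraries of 1 line lay one way and both of the other line the other way. The difference of the medians was not tested.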

How the results depend on the processing

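Values below are counts of genes, with 1 library per dose and no test. No paired analysis was possible because each group holds 1 library, and no library could be left out. With 0.1 in place of 1, at least 2-fold higher and lower were 158 and 111 at 2.5 µM, 335 and 361 at 5 µM and 103 and 17 from 2.5 to 5 µM, alike 154 and 187, mostly at 5 µM 69 and 80, stepwise 118 and 106, returning 31 and crossing 2. With no filter on low values the counts were the same by construction, since a gene under 1 FPKM cannot reach 2-fold with a pseudocount of 1. With a floor of 5 FPKM, mostly higher at 5 µM were 40 and returning 4. With equal FPKM totals, lower at 5 µM were 253, mostly lower at 5 µM 43 and stepwise lower 69, against 90, 4 and 12 with quantile normalization and 140, 19 and 25 as reported. With a length trend removed, stepwise lower were 16. A shape margin of 0.7 gave 5 mostly lower at 5 µM, 19 and 1 stepwise and 4 returning. A margin of 0.3 gave 61 and 35 alike, 36 and 2 mostly at 5 µM, 123 and 103 stepwise, 14 returning and 2 crossing. The median of metallothionein and zinc genes at 5 µM went from 0.20 to -0.13 with a floor of 5 FPKM, which left fewer genes. List medians moved by more than 0.1 in 28 of 64 cases with equal FPKM totals, 13 with the length trend removed and 8 with quantile normalization. Equal totals also shifted the median of all genes at 5 µM by -0.12. The line difference called 0 genes under each of its settings, with smallest adjusted p from 0.78 to 1. Sampling error cannot be given without counts, so single genes under about 5 FPKM are the least certain.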
